A study of Drosophila melanogaster with 20 samples.

Results

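Small nucleolar RNAs (snoRNAs) were followed through small RNA libraries of cells sorted from Drosophila melanogaster embryos. Members were the rows of the deposited count files whose FlyBase symbol starts with snoRNA: and that held at least 10 counts in at least 2 of the 20 libraries, which kept 236 of 243 snoRNA rows among 17559 rows. The rule uses the amount of reads and no contrast between groups. Just inside it were snoRNA:Psi28S-1232, with a second highest library of 15.0 counts, and snoRNA:Psi18S-640c with 18.0; just outside were snoRNA:Psi18S-640e with 8.0 and snoRNA:CG43051-a with 6.0.

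Embryos were dissociated 6-8 h or 18-22 h after egg laying, and the cells were fixed in 4% formaldehyde, stained for 1 marker protein and sorted by FACS. Each sort gave a marker-positive and a marker-negative fraction, with 2 libraries of each that the labels call biological duplicates. The sorts used repo (a homeodomain protein of glia), elav (an RNA-binding protein of neurons) and pros (a transcription factor found in neuroblasts and their daughters). The groups were pros-positive and pros-negative cells at 6-8 h, and repo-positive, repo-negative, elav-positive and elav-negative cells at 6-8 h and at 18-22 h. A negative fraction is the rest of the embryo, not a cell type; the source label still names it by the cell type of its sort. No genotype or strain beyond the species, and no treatment other than fixation, is used here to tell the groups apart.

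SnoRNAs are short nuclear RNAs that guide the chemical modification of ribosomal RNA (rRNA) and of spliceosomal RNAs. C/D box snoRNAs pair with the target and direct the methyltransferase Fibrillarin to methylate a ribose. H/ACA box snoRNAs are longer, fold into hairpins and direct the pseudouridine synthase of their particle, Nop60B in the fly. A few of them, U3 above all and also U14, act in cutting the rRNA precursor rather than in, or as well as in, marking it. Most fly snoRNAs lie in introns and are released when the host transcript is spliced and the intron is trimmed. In FlyBase symbols Me marks a ribose methylation guide, Psi a pseudouridylation guide, and the rest of the name the target RNA, base and position, while copies of a family differ by a last letter.

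By symbol, 105 members were H/ACA guides, 71 C/D guides, 18 C/D snoRNAs named by a U or snR number, 11 orphan C/D and 4 orphan H/ACA snoRNAs with no target in the name, and 27 had no class in the symbol. Named targets were 28S rRNA for 110 members, 18S rRNA for 63, U6 for 2 and 5.8S rRNA for 1. C/D members had a median length of 79 nt and H/ACA members of 140 nt, both longer than the 51 nt reads. On the same strand, 210 members lay in introns of 71 host genes. The fullest hosts were the non-coding gene Uhg1 and Arpc2 with 16 members each, dom with 15, RpS5a with 14 and Uhg5 with 11. Copies were common, since 44 families held 134 members. Reads that matched several copies were divided between them by the authors, and 88.3% of member values were not whole numbers, so copies of a family are uncertain as single rows. snoRNA:U3:54Aa and snoRNA:U3:54Ab, at 54A on chromosome 2R, show this best: their counts in repo-positive cells at 6-8 h replicate 1 were 144581 and 144583.

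Sorting enriched the marker in each case. In the repo-positive over repo-negative contrast, repo was higher by 5.52 ± 0.40 (log2, SE) at 6-8 h and 5.44 ± 0.40 at 18-22 h. In the elav-positive over elav-negative contrast, elav was higher by 3.57 ± 0.35 and 3.41 ± 0.35, and in the pros-positive over pros-negative contrast pros was higher by 3.98 ± 0.39. Libraries held 6863042 to 24501421 counts. Reads on rRNA took 18.8 to 52.5% and miRNAs 1.01 to 41.4% of them. The elav-positive 6-8 h replicate 2 library stood apart, with the lowest miRNA share and the largest scaling factor, 2.07, where the other 19 lay between 0.698 and 1.24. Replicate 2 of elav-negative cells at 6-8 h had the next lowest miRNA share, 2.09%, and the highest snoRNA share of all libraries, 28.98%. The 4 pros libraries carry another mapping directory in their file headers than the other 16, and were made in a sort at 6-8 h alone.

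The first measure is the share of all counts that fell on snoRNAs, which needs no scaling between libraries. It was lower in marker-positive than in marker-negative cells of the repo and elav sorts, with no overlap in any of these 4 pairs of groups. In repo-positive cells at 6-8 h it was 12.1 and 6.72%, against 15.5 and 17.1% in repo-negative cells. In elav-positive cells at 6-8 h it was 10.6 and 16.8%, against 17.34 and 28.98% in elav-negative cells. Positive fractions thus lay below negative ones in both sorts of early embryos, though in the elav sort the gap between the nearest libraries was small. At 18-22 h repo-positive cells gave 10.4 and 13.6%, against 16.3 and 21.0% in repo-negative cells. Elav-positive cells of that stage gave 11.2 and 14.2%, against 16.6 and 21.8% in elav-negative cells. In the pros sort the groups overlapped, with 12.3 and 5.40% in pros-positive and 10.7 and 7.10% in pros-negative cells.

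Over the 5 sorts the snoRNA share in positive cells was 0.666 times that in negative cells, a mean log2 difference of -0.59, and the direction was the same in 5 of 5 sorts (-0.85, -0.75, -0.10, -0.64 and -0.59 in the repo, elav and pros sorts at 6-8 h and the repo and elav sorts at 18-22 h). A two-sided exact permutation test within sorts gave p = 0.00823, or 0.0329 after Benjamini-Hochberg adjustment over the 4 share tests. Without the pros libraries, an alternative added after the data were seen, the difference was -0.71 (exact permutation p = 0.00154). That p is the smallest that 4 sorts allow. It was fixed once the only sort with overlapping groups was left out, and adds no evidence. No single sort can reach 0.05 on its own, since 2 libraries against 2 allow an exact p of no less than 0.333. Relative to non-miRNA counts the difference was -0.53, and relative to counts outside miRNAs and rRNA -0.45 (exact permutation p = 0.00797 and 0.0111, not adjusted). In bulk samples fewer cells rich in snoRNA and less snoRNA per cell cannot be told apart.

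Markers of other cell types differed between the same groups. The summed level of 5 hemocyte markers, in CPM (non-miRNA counts brought to a common total per library and scaled by TMM factors, which align the bulk of rows between libraries), was 146 to 282 in repo-positive and 147 to 177 in elav-positive cells at 18-22 h. It was 1550 to 3340 in repo-negative and 1980 to 3760 in elav-negative cells of that stage. All 5 were lower in elav-positive than elav-negative cells at 18-22 h, and 4 of 5 in the repo sort of that stage. At 6-8 h it was 12.7 to 14.7 CPM in repo-positive against 43.2 to 71.2 CPM in repo-negative cells (2 of 5 lower), and 12.4 to 19.8 CPM in elav-positive against 70.6 to 159 CPM in elav-negative cells (4 of 5 lower). In the pros sort, where the snoRNA share overlapped, 3 of 5 were lower (46.6 to 55.0 CPM in pros-positive against 199 to 215 CPM in pros-negative cells). Of 5 muscle markers, 4 were lower in the elav sort at 18-22 h (157 to 177 against 385 to 445 CPM in sum) and 2 in that at 6-8 h (37.2 to 37.9 against 51.2 to 73.9 CPM). None of these 5 passed edgeR's threshold in the other 3 sorts, where their sums were 39.5 to 52.7 CPM in repo-positive and 42.5 to 46.6 CPM in repo-negative cells at 6-8 h, 76.4 to 90.9 CPM over the 4 pros libraries, and 204 to 231 CPM in repo-positive and 433 to 479 CPM in repo-negative cells at 18-22 h. Of 6 neuron markers, 3 were higher in repo-positive than in repo-negative cells at 6-8 h, 0 at 18-22 h and 4 in the pros sort. None was lower in these 3 sorts. The part of these cell types in the snoRNA share was not tested.

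**Figure D1:**
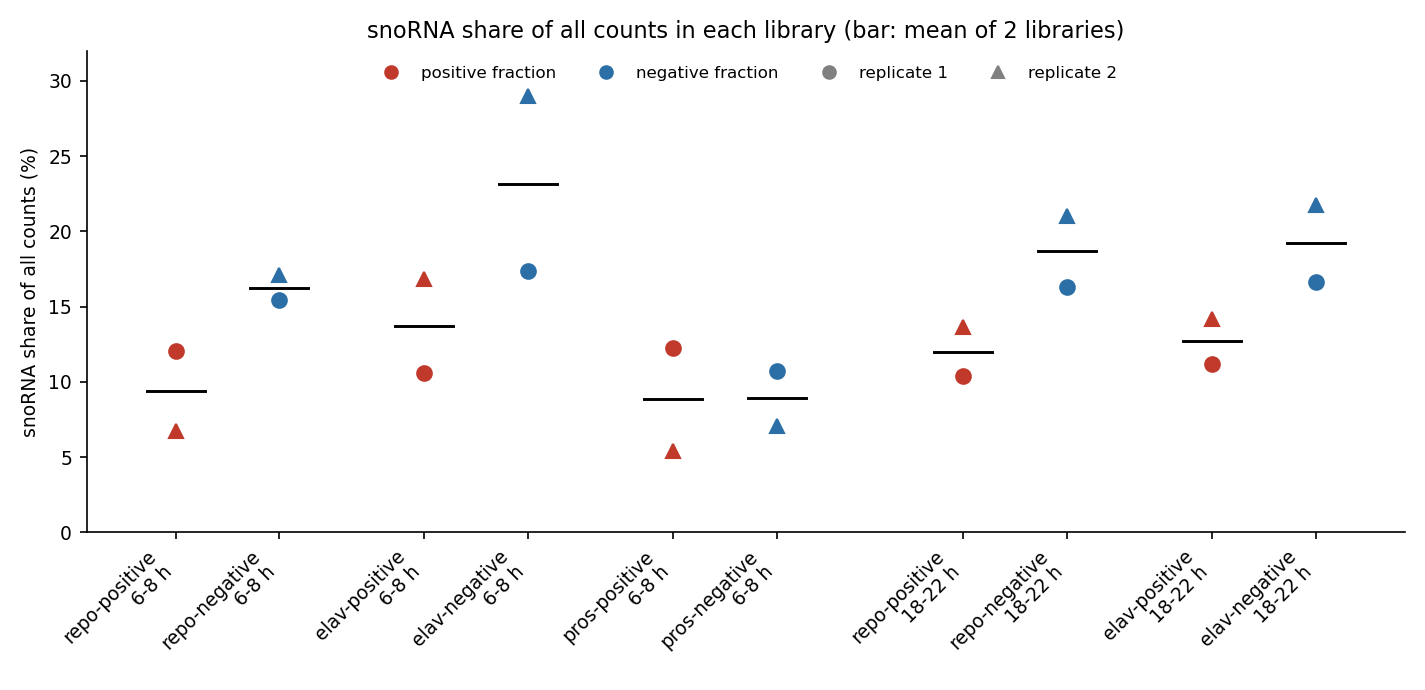
Percent of all counts on the 236 snoRNAs in each of the 20 libraries, by group; circles are replicate 1, triangles replicate 2, and bars the mean of 2 libraries. In the 4 repo and elav pairs both positive libraries lie below both negative ones, while the pros groups overlap.

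Between stages no such shift was seen in the share. The mean of log2 18-22 h over 6-8 h was 0.07 over the 4 fractions (two-sided exact permutation p = 0.708, adjusted p = 0.708), and the libraries of both stages overlapped in each fraction. The balance of classes was also compared. H/ACA counts were 0.116 to 0.380 times C/D counts in single libraries. That ratio differed by 0.07 (log2) between positive and negative fractions, which changed sign without a single library, and by -0.24 between late and early fractions (exact permutation p = 0.696 and 0.127, adjusted p = 0.708 and 0.253). Neither passed the test.

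A few snoRNAs carried much of the class. The 10 largest members of each library, taken for each library on its own, held 45.1 to 55.3% of its snoRNA counts. The 10 members of highest mean CPM over the libraries, which need not be the largest in each, were both U3 copies of 54A, snoRNA:U3:9B, the 28S methylation guides snoRNA:Me28S-G2703a and snoRNA:Me28S-C3227a, the 18S methylation guides snoRNA:Me18S-C1968, snoRNA:Me18S-A1806 and snoRNA:Me18S-C1096, and the 28S pseudouridylation guides snoRNA:Psi28S-3342 and snoRNA:Psi28S-2622. On a per-length scale the highest level was that of snoRNA:Me28S-G2703a, an intronic snoRNA of Uhg5, with a mean of 13813 CPM per 100 nt, followed by the U3 copies of 54A with 9187 each, a pair whose shared reads make the single values uncertain. The C/D class had the higher read level, with a median of 690 CPM per 100 nt over 100 members against 24.9 over 109 H/ACA members. These are counts in small RNA libraries, not amounts in the cell, and the part of length in them was not tested. The lowest member, snoRNA:Psi28S-1232, was at 0.337 CPM per 100 nt, and 36 members averaged under 10 CPM.

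U3, which is needed for the first cuts of the rRNA precursor, passed the test in none of the comparisons. In repo-positive cells snoRNA:U3:54Aa had 15884 and 6474 CPM at 6-8 h, against 18347 and 19062 CPM in repo-negative cells. In elav-positive cells of that stage it had 13299 and 3862 CPM, against 23870 and 23583 CPM in elav-negative cells. Positive libraries lay below negative ones in both sorts, replicate 2 far below, and at -0.74 ± 0.54 and -1.47 ± 0.55 (log2, SE) neither sort passed the test. At 18-22 h repo-positive cells had 17679 and 21754 CPM and repo-negative cells 19952 and 26251 CPM, and the groups overlapped. Elav-positive cells of that stage had 14457 and 17406 CPM and elav-negative cells 20659 and 27129 CPM, with no overlap. Pros-positive cells had 8563 and 3647 CPM and pros-negative cells 8823 and 7179 CPM, below the repo and elav libraries but for replicate 2 of the early positive groups. The 3 U3 rows made up 10.99% of snoRNA counts in elav-positive 6-8 h replicate 2, 11.9 to 18.7% in the pros libraries and 19.6 to 31.5% elsewhere. The U14 copies in chromosome arm 2L, which also act in 18S rRNA processing, passed no test; snoRNA:U14:30Ea had 2433 and 2405 CPM in repo-positive cells at 18-22 h and 1895 and 628 CPM at 6-8 h.

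Single members were tested with edgeR's quasi-likelihood test in 1 fit of all 20 libraries and 11928 rows, all 236 members among them, with Benjamini-Hochberg adjustment over all rows and a threshold of 0.05. Positive cells were first set against negative cells. In the repo sort at 6-8 h, 0 members were higher and 9 lower in repo-positive than in repo-negative cells, where 3.3% of all rows tested were called in either direction and 0.872% were lower. The median change of the members was -0.87 (log2), with 225 of 236 below 0, beside 0.01 for all rows. Leaving out 1 library gave 0 to 32 calls, with 0 without replicate 2 of either group, 1 without repo-negative replicate 1 and 32 without repo-positive replicate 1. In elav-positive cells at 6-8 h 0 members were higher and 55 lower than in elav-negative cells (8.74% of all rows called, 3.13% lower), with a median of -1.22 beside 0.07. Leaving out 1 library gave 9 to 51 calls there, with 9 without elav-positive replicate 2, 10 without elav-negative replicate 2 and 28 without elav-negative replicate 1. At 18-22 h 24 members were lower and 0 higher in the elav sort (13.9% of all rows called, 4.72% lower), with a median of -0.94 beside -0.14. Leaving out 1 library gave 1 to 19 calls, with 1 and 11 without elav-positive replicates 1 and 2, and 4 without elav-negative replicate 2. In the repo sort of that stage 0 members passed edgeR's threshold either way (2.28% of all rows called) and 17 had an unadjusted p under 0.05; DESeq2 also called 0. The median was -0.50 beside -0.11.

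In the pros sort 2 members were higher and 1 lower in pros-positive than in pros-negative cells (2.33% of all rows called), the median was -0.01 beside -0.12, and 120 of 236 members were below 0. Leaving out 1 library gave 0 to 14 calls there, with 14 and 5 without pros-positive replicates 1 and 2, and 0 without either pros-negative library. Whether the pros sort differs from the repo and elav sorts was not tested. The counts of calls and the medians depended on the scaling. Scaled to total non-miRNA counts, the calls fell to 0, 6 and 5 members in the repo sort at 6-8 h and the elav sorts at 6-8 h and 18-22 h, and that scaling put the median of all rows at 0.72 in the elav sort at 6-8 h. Member medians in these 3 sorts were -0.76, -0.62 and -0.63 under total non-miRNA counts. They were 0.09, 0.10 and -0.13 under total snoRNA counts, which centre the members near 0 by construction. That scaling put the medians of all rows at 1.13, 1.41 and 0.61. Under it 1, 0 and 0 members were called higher and 0, 1 and 0 lower in these sorts. Without both replicate 2 libraries of the elav sort at 6-8 h no call was left there.

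By box class, at 6-8 h 6 of 100 C/D and 3 of 109 H/ACA members were lower in the repo sort (medians -1.07 and -0.69), and 23 C/D and 26 H/ACA members were lower in the elav sort (medians -1.21 and -1.23). At 18-22 h 1 C/D and 20 H/ACA members were lower in elav-positive cells, with medians of -0.83 and -1.09. The shares of all rows called lower in these sorts, 0.872, 3.13 and 4.72%, are the background to these counts; 1 of 100 C/D members in the last is below it. By host, medians in the elav sort at 6-8 h were -1.24 for 45 members in Uhg genes, -1.28 for 62 in genes of ribosomal proteins and -1.11 for 103 in other hosts. Guides to 28S rRNA and to 18S rRNA had medians of -1.28 and -1.15 in that sort. No test of a difference between classes, hosts or targets was made.

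**Figure D2:**
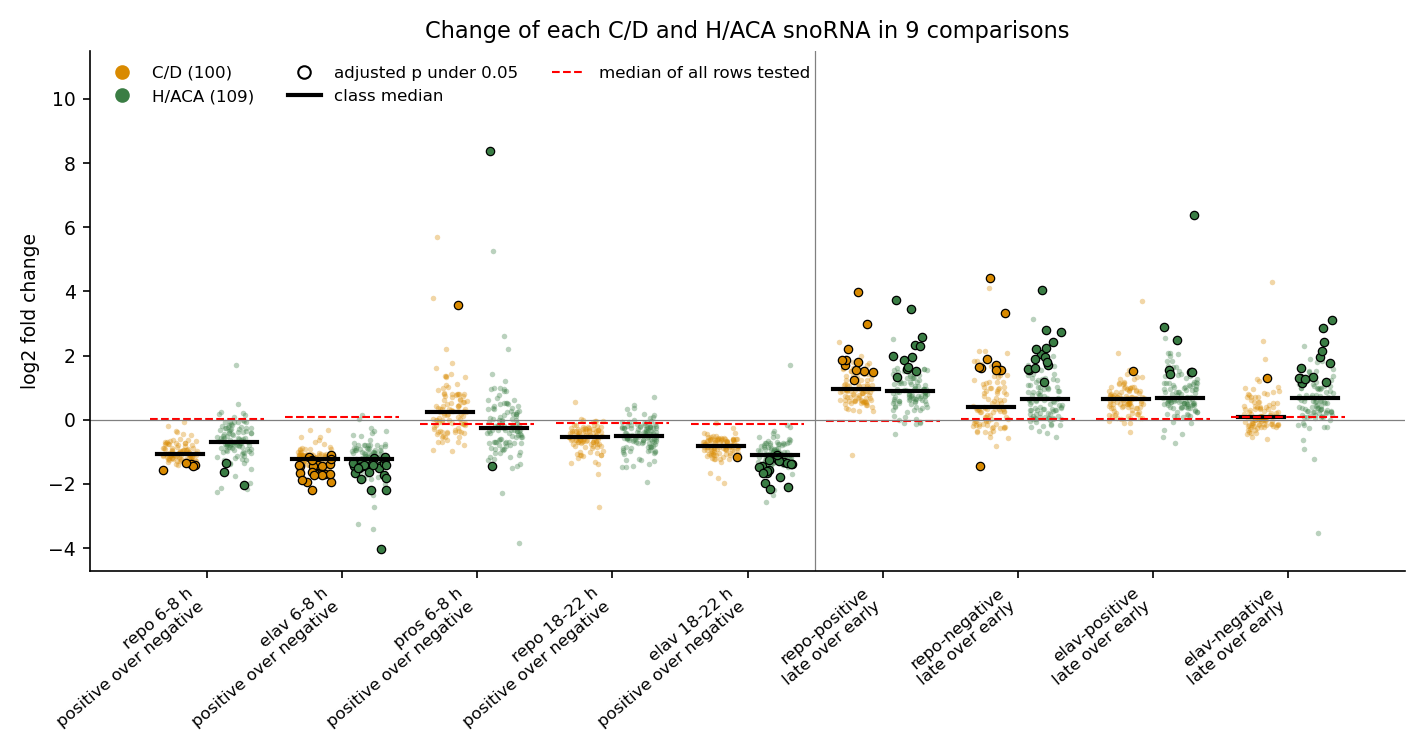
log2 fold change of each C/D (orange) and H/ACA (green) snoRNA in 9 comparisons, with outlined points past the adjusted threshold, black bars at class medians and dashed red lines at the median of all rows tested. Under TMM scaling the class medians lie between -1.23 and -0.51 in the repo and elav sorts and between 0.10 and 0.95 in the late over early contrasts; under total snoRNA counts the medians of all members lie between -0.13 and 0.19 in these 8 comparisons.

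Among the named members, snoRNA:Psi28S-2949, an H/ACA guide in an intron of Uhg4 (BDGP6, chromosome 2R, 9095372 to 9095526, plus strand), had 11.3 and 8.82 CPM in repo-positive cells at 6-8 h, against 22.4 and 39.3 CPM in repo-negative cells. The groups did not overlap, and the difference was -1.61 ± 0.40 (log2, SE; edgeR adjusted p = 0.0256). It was also lower in elav-positive than in elav-negative cells, by -1.72 ± 0.39 at 6-8 h and -1.30 ± 0.38 at 18-22 h (edgeR adjusted p = 0.00754 and 0.0271). With snoRNA:Psi18S-525j, an H/ACA guide in an intron of Arpc2, it was 1 of 2 members called in 3 of the 5 sorts. snoRNA:Psi18S-525j was lower in the positive cells of all 3 sorts at 6-8 h, with -1.36 ± 0.34 for repo, -1.40 ± 0.34 for elav and -1.46 ± 0.35 for pros. In the pros sort it had 11.9 and 6.63 CPM in pros-positive cells, against 25.0 and 25.9 CPM in pros-negative cells (edgeR adjusted p = 0.0327). It was the only member called lower in that sort, and was not called there without pros-positive replicate 2 or without either pros-negative library.

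Members of the snoRNA:Me28S-G1083 family, C/D guides that share an exon with Nop60B, were lower in repo-positive cells at 6-8 h. snoRNA:Me28S-G1083c had 257 and 162 CPM there, against 555 and 570 CPM in repo-negative cells, and differed by -1.43 ± 0.34 (edgeR adjusted p = 0.0211). With the copies summed, the family differed by -1.40 ± 0.36 in the repo sort and -1.71 ± 0.36 in the elav sort at 6-8 h (edgeR adjusted p = 0.0325 and 0.0041). The 18S guide snoRNA:Me18S-A1576 had 1187 and 373 CPM in repo-positive cells, against 2558 and 2093 CPM in repo-negative cells (-1.58 ± 0.43, adjusted p = 0.0455). The 28S guide snoRNA:Me28S-A1666a of Uhg1 had 93.5 and 82.4 CPM, against 203 and 264 CPM (-1.41 ± 0.35, adjusted p = 0.0268 by edgeR). None of the 6 calls named in the repo sort at 6-8 h held in all 4 fits that each left out 1 library.

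In the elav sort at 6-8 h snoRNA:Psi28S-3327a, a guide in an intron of RpS4, had 21.8 and 12.6 CPM in elav-positive cells, against 84.7 and 73.5 CPM in elav-negative cells, and differed by -2.21 ± 0.42 (edgeR adjusted p = 0.00181). It kept its call in all 4 fits that left out 1 library. Scaled to total snoRNA counts, snoRNA:Psi28S-3327a differed by -0.92 and did not pass (edgeR adjusted p = 0.207). The abundant snoRNA:Me28S-G2703a had 5359 and 5233 CPM in elav-positive cells, against 13924 and 34239 CPM in elav-negative cells (-2.19 ± 0.51, edgeR adjusted p = 0.00826). Its 2 negative libraries were far apart, and it was not called without elav-negative or elav-positive replicate 2. snoRNA:Psi28S-1060, snoRNA:U49:66Da, snoRNA:Me28S-G3255a and snoRNA:U27:54Eb, the other named members of this comparison, differed by -2.19 to -1.87. Under total snoRNA counts none of the members in this paragraph passed edgeR's threshold in this sort.

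At 18-22 h the named member with the smallest adjusted p was snoRNA:CG31191-a, in an intron of CG31191 on chromosome 3R, whose symbol gives no class. It had 6.998 and 11.2 CPM in elav-positive cells, against 39.5 and 33.1 CPM in elav-negative cells, and differed by -1.99 ± 0.36 (edgeR adjusted p = 0.000562). That call held in all 4 fits that left out 1 library. Scaled to total snoRNA counts, the difference of snoRNA:CG31191-a was -1.29 and did not pass (edgeR adjusted p = 0.167). Repo-positive cells of the same stage had 24.4 and 23.5 CPM, and it was the only member higher in repo-positive than in elav-positive cells at 18-22 h, by 1.39 ± 0.35 (edgeR adjusted p = 0.0208; 6% of all rows called). Without any 1 of those 4 libraries the last call was lost. snoRNA:Psi28S-291 had 30.4 and 41.9 CPM in elav-positive cells, against 120 and 106 CPM in elav-negative cells (-1.64 ± 0.34, adjusted p = 0.00236), a call lost without elav-positive replicate 1. The other named members there, snoRNA:Psi18S-525k, snoRNA:Psi28S-3327c, snoRNA:Psi18S-1295 and snoRNA:Psi28S-1135a, differed by -2.15 to -1.67.

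Stages were then compared within each sorted fraction. In repo-positive cells 25 members were higher and 0 lower at 18-22 h than at 6-8 h (3.54% of all rows called, 1.95% higher), with a median change of 0.91 beside -0.03 for all rows. In repo-negative cells 27 were higher and 1 lower (11.2% of all rows called, 7.48% higher), with medians of 0.54 and 0.01. Elav-positive cells had 8 higher and 0 lower (3.09% called, 1.95% higher), with medians of 0.64 and 0.01. Elav-negative cells had 14 of 236 higher and 0 lower (12% called, 6.86% higher), with medians of 0.37 and 0.10. The share of members called higher in elav-negative cells was below that of all rows. Leaving out 1 library gave 1 to 18, 3 to 16, 2 to 11 and 1 to 13 calls in repo-positive, repo-negative, elav-positive and elav-negative cells; the fewest came without repo-positive 6-8 h replicate 2, repo-negative 6-8 h replicate 1, elav-positive 6-8 h replicate 2 and elav-negative 6-8 h replicate 2. In all, 48 members were called higher in at least 1 fraction, 30 of them in 1 fraction alone. The same count was not made over all rows, so these counts have no background and are not read as a trait of snoRNAs. Scaled to total non-miRNA counts the calls were 5, 10, 3 and 4 higher and 0, 1, 0 and 0 lower. With total snoRNA counts they were 3, 7, 2 and 4 higher and 1, 0, 0 and 0 lower. Member medians were 0.42, 0.19, 0.02 and 0.00 under total non-miRNA counts, where all rows had -0.54, -0.32, -0.67 and -0.21, and -0.03, 0.06, -0.05 and 0.19 under total snoRNA counts, where all rows had -1.12, -0.40, -0.70 and -0.01. Muscle and hemocyte markers also differed between stages: of 5 muscle markers 4, 5, 3 and 5 were higher late in the same order of fractions (medians 2.94, 3.51, 2.53 and 3.53), of 5 hemocyte markers 3, 4, 3 and 3 (medians 2.81, 3.96, 2.46 and 3.22), and 0 of either list lower. Of 6 neuron markers 3, 5, 1 and 3 were higher late and 0 lower, and of 6 neuroblast markers 3, 2, 1 and 2 were lower and 0 higher. Of 7 glia markers 1, 0, 0 and 0 were higher and 1, 1, 1 and 0 lower. Of 3 epidermis markers tested 0, 1, 1 and 1 were higher and 0, 1, 0 and 1 lower. The part of these cell types in the snoRNA values was not tested.

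Whether the stage contrast differed between positive and negative cells was tested next. A test of the difference of differences called 0 members in the repo sort and 0 in the elav sort (0.109 and 1.12% of all rows called). In edgeR 5 and 4 members had an unadjusted p under 0.05, and DESeq2 called 0 and 1. The negative fractions of both sorts were compared after the data had been seen, and 0 members were called in repo-negative over elav-negative cells at 6-8 h and 0 at 18-22 h (0 and 0.595% of all rows called), with 30 and 5 at an unadjusted p under 0.05 in edgeR, and 4 and 0 called by DESeq2.

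The H/ACA guide snoRNA:Psi28S-3316a was higher at 18-22 h in all 4 fractions. It lies in an intron of dom (BDGP6, chromosome 2R, 21326739 to 21326870, plus strand), with 4 further copies of the family in the same gene. In repo-positive cells it had 17.9 and 28.7 CPM at 18-22 h, against 2.42 and 1.11 CPM at 6-8 h. In repo-negative cells it had 28.8 and 41.7 CPM, against 1.71 and 2.54 CPM. Late and early libraries were thus far apart on both sides of the sort. Elav-positive cells had 18.0 and 30.1 CPM at 18-22 h, against 0.476 and 0.141 CPM at 6-8 h. These 2 early libraries held only 4.03 and 2.50 counts, so the size of that change is poorly fixed. Elav-negative cells had 27.7 and 41.0 CPM, against 1.43 and 7.48 CPM.

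The changes of snoRNA:Psi28S-3316a were 3.73 ± 0.66, 4.05 ± 0.66, 6.38 ± 0.81 and 2.86 ± 0.61 (log2, SE) in repo-positive, repo-negative, elav-positive and elav-negative cells (edgeR adjusted p = 0.00313, 0.000462, 0.00053 and 0.00458). They held under each other scaling, filter and tool tried, and in 14 of 16 fits that left out 1 library; the 2 exceptions were without repo-positive 6-8 h replicate 2 and without elav-negative 6-8 h replicate 1. The pros libraries, also of 6-8 h embryos, did not share the low early level, with 35.4 and 12.3 CPM in pros-positive and 10.97 and 13.2 CPM in pros-negative cells. The stage and the set of libraries cannot be told apart for this row. With the 5 copies summed, the family was higher at 18-22 h by 1.65 ± 0.35, 1.44 ± 0.35, 1.47 ± 0.35 and 1.11 ± 0.34 in the same order of fractions (edgeR adjusted p = 0.0118, 0.00923, 0.0261 and 0.04). The copy snoRNA:Psi28S-3316b, downstream of the first in the same gene, was higher in the repo fractions, by 2.58 ± 0.43 and 2.73 ± 0.43 in positive and negative cells (edgeR adjusted p = 0.00244 and 0.000395). In elav fractions it moved by 1.16 and 0.86 and did not pass. The only other member called higher in all 4 fractions was snoRNA:Psi28S-2149, an H/ACA guide in an intron of RpS7, singled out after its values were seen, with changes of 1.32 to 1.59.

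Among the named members, 2 C/D snoRNAs were higher at 18-22 h in both repo fractions and passed in neither elav fraction. snoRNA:U49:66Db lies in an intron of RpL14 (BDGP6, chromosome 3L, 8601948 to 8602031, plus strand). It had 1048 and 4810 CPM in repo-positive cells at 18-22 h, against 260 and 110 CPM at 6-8 h. In repo-negative cells it had 5164 and 7020 CPM, against 187 and 387 CPM. The changes were 3.99 ± 0.86 and 4.41 ± 0.88 (edgeR adjusted p = 0.0131 and 0.0024). Without 1 library they ranged from 2.51 to 4.72 in repo-positive and from 3.99 to 5.04 in repo-negative cells. Elav-positive cells had 1533 and 4454 CPM at 18-22 h, against 3370 and 365 CPM at 6-8 h, and elav-negative cells 5187 and 7044 CPM, against 5193 and 4073 CPM. These changes, 0.68 and 0.40, did not pass the test. The early libraries differed most: all 4 of the repo sort lay between 110 and 387 CPM, and the early elav and pros libraries lay between 714 and 5193 CPM but for elav-positive replicate 2.

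snoRNA:U49:66Db was also the only member lower in repo-positive than in elav-positive cells at 6-8 h, by -3.34 ± 0.83 (edgeR adjusted p = 0.0252; 3.89% of all rows called), and this call was lost without either repo-positive library or without elav-positive replicate 1. Between the negative fractions of those sorts it differed by -4.01 ± 0.86, with an adjusted p of 0.426. The estimate was thus as large between cells negative for either marker, although it did not pass there. snoRNA:U29:54Ed, in an intron of Uhg1, had 203 and 595 CPM in repo-positive cells at 18-22 h, against 74.0 and 26.7 CPM at 6-8 h, and 763 and 1044 CPM, against 52.3 and 127 CPM, in repo-negative cells. It was higher by 2.99 ± 0.67 and 3.34 ± 0.68 (edgeR adjusted p = 0.0161 and 0.00294). Without 1 library these changes ranged from 2.01 to 3.88 in repo-positive and from 2.85 to 4.12 in repo-negative cells. In elav fractions the changes were 0.90 and 0.34 and did not pass. Whether the stage contrast differs between the repo and elav sorts was not tested.

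**Figure D3:**
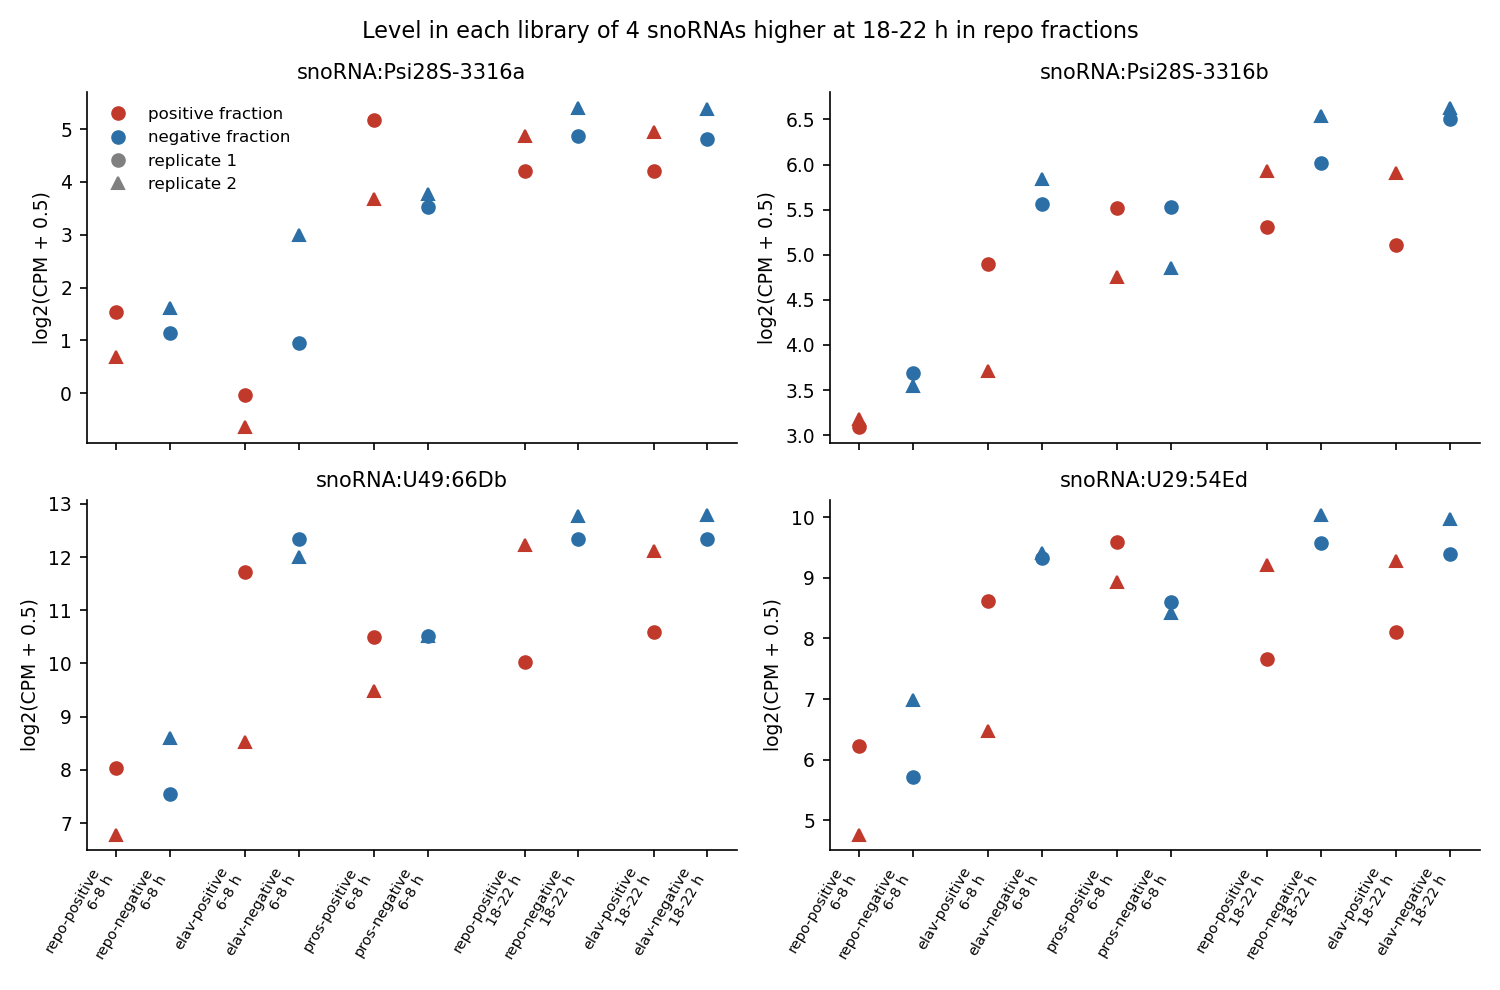
log2(CPM + 0.5) of 4 snoRNAs in each library, by group, with circles for replicate 1 and triangles for replicate 2. snoRNA:Psi28S-3316a is low in all early repo and elav libraries and between 10.97 and 35.4 CPM in the early pros libraries, while snoRNA:U49:66Db and snoRNA:U29:54Ed are low in the 4 early repo libraries and in elav-positive replicate 2.

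The orphan C/D snoRNA snoRNA:Or-CD10 was higher late in 3 of 4 fractions. In elav-positive cells it had 963 and 743 CPM at 18-22 h, against 352 and 243 CPM at 6-8 h (1.52 ± 0.33, edgeR adjusted p = 0.0179). Without 1 library that change ranged from 1.27 to 1.86. The call was lost under total non-miRNA counts and under total snoRNA counts (0.87, edgeR adjusted p = 0.353). The H/ACA guide snoRNA:Psi28S-3327a had 90.8 and 101 CPM at 18-22 h in those cells, against 21.8 and 12.6 CPM (2.48 ± 0.42, edgeR adjusted p = 0.00311). Under total snoRNA counts its change was 1.82 and did not pass (edgeR adjusted p = 0.0794). Only 1 member fell. snoRNA:MeU6-A47, a C/D guide to the spliceosomal RNA U6, had, in repo-negative cells, 7.95 and 11.7 CPM at 18-22 h, against 26.1 and 27.7 CPM at 6-8 h (-1.46 ± 0.45, edgeR adjusted p = 0.0392). That call was lost without any 1 of the 4 libraries. Across the 10 groups its profile was also the least like the summed snoRNA profile, with Pearson's r of 0.191 between log2 group means, followed by snoRNA:CD-24 (0.249) and snoRNA:Me28S-G2703b (0.26). The most alike were snoRNA:Me28S-C3351, snoRNA:Me18S-A1806 and snoRNA:Me28S-A774a, with r of 0.994, 0.984 and 0.982. The median r over members was 0.84 and 224 of 236 exceeded 0.5; all points share the same libraries and scaling, and each member is part of the sum.

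Genes around the snoRNAs were read from the same libraries, where exon reads come from fragments of longer RNAs. SnoRNPs are built on Fib, Nop56, nop5 and hoip in the C/D class and Nop60B, NHP2, CG7637 and CG4038 in the H/ACA class, and 5 of the 8 could be tested. In elav-positive cells at 6-8 h 4 of 5 were lower than in elav-negative cells and 0 higher, with Nop56 at -1.79 ± 0.50, nop5 at -2.0 ± 0.43 and NHP2 at -2.96 ± 0.68. The fourth, Nop60B at -1.63 ± 0.38, shares an exon with snoRNAs. In the repo sort at 6-8 h nop5 alone was lower, by -1.69 ± 0.42, and in the elav sort at 18-22 h again nop5 alone, by -1.44 ± 0.44. Of all rows tested, 0.872 and 3.13% were lower in the repo and elav sorts at 6-8 h, and 4.72% in the elav sort at 18-22 h. In the pros sort and in the repo sort at 18-22 h none of the 5 passed edgeR's threshold, with medians of -0.64 and -0.62.

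Late over early, 2, 2, 0 and 4 of these 5 genes were lower in repo-positive, repo-negative, elav-positive and elav-negative cells and 0 were higher, where 1.59, 3.69, 1.13 and 5.1% of all rows tested were lower. Their medians were -1.36, -1.96, -1.21 and -1.73, where the snoRNA medians, also under TMM, were 0.91, 0.54, 0.64 and 0.37. Fib, the methyltransferase of C/D particles, was lower by -2.25 ± 0.56 in repo-positive, -2.01 ± 0.52 in repo-negative and -1.63 ± 0.52 in elav-negative cells (edgeR adjusted p = 0.0306, 0.0143 and 0.0447). Among 8 assembly and nucleolar factors, 4, 3, 0 and 2 were lower late in the same order of fractions and 0 were higher, beside the same shares of all rows. They included the nucleoplasmin family genes Nlp and Nph in repo-positive cells (-2.44 ± 0.50 and -3.56 ± 0.75) and pont, a helicase of the snoRNP assembly machinery (-2.58 ± 0.58). In the 5 sorts the only call among these 8 was l(2)k09022, lower in elav-positive cells by -1.97 ± 0.42 at 6-8 h and -1.55 ± 0.44 at 18-22 h.

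Host genes were read through their exons. In 22 hosts with at least 3 members, the median snoRNA change late over early was above 0 in 22, 20, 22 and 19 under TMM (repo-positive, repo-negative, elav-positive, elav-negative cells), in 20, 16, 11 and 12 under total non-miRNA counts and in 11, 13, 8 and 16 under total snoRNA counts. Exon counts of these hosts were lower in 1, 6, 0 and 6 and higher in 0, 1, 0 and 0, beside 1.59, 3.69, 1.13 and 5.1% of all rows lower. The host values that follow are under TMM. Uhg1, a gene with no known protein whose introns hold 16 members, fell in its exons by 2.48 ± 0.40 on the log2 scale in repo-negative cells (edgeR adjusted p = 0.000418), while its snoRNAs had a median of 1.1. Uhg4 exons differed there by -2.75 ± 0.49 and its snoRNAs by a median of 0.86, and Uhg5 exons by -1.72 ± 0.38 beside 0.66. In elav-negative cells the exons of Hrb98DE, which encodes an RNA-binding protein, differed by -1.67 ± 0.30 and its 7 snoRNAs by a median of 0.95.

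Ribosomal protein hosts gave other values. RpS5a, with 14 snoRNAs, differed by 0.42 in its exons in repo-negative cells (adjusted p = 0.497 by edgeR), close to the median of 0.41 of its snoRNAs. pAbp was the only host higher in exons late in repo-negative cells, with 0.89 ± 0.28 beside a snoRNA median of 1.19. In the elav sort at 6-8 h, exons and snoRNAs were both lower in several hosts: Uhg1 exons differed by -2.06 ± 0.39 and its snoRNAs by a median of -1.23, and Uhg4 exons by -2.12 ± 0.48 beside -1.40. Of the 8 Uhg genes 7 could be tested, and 5 were lower in that sort, 1 in the elav sort at 18-22 h and 3 late in each negative fraction, with 0 higher in any of these. Of all rows, 3.13 and 4.72% were lower in the elav sorts at 6-8 h and 18-22 h. Late over early, 3.69 and 5.1% were lower in repo-negative and elav-negative cells.

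**Figure D4:**
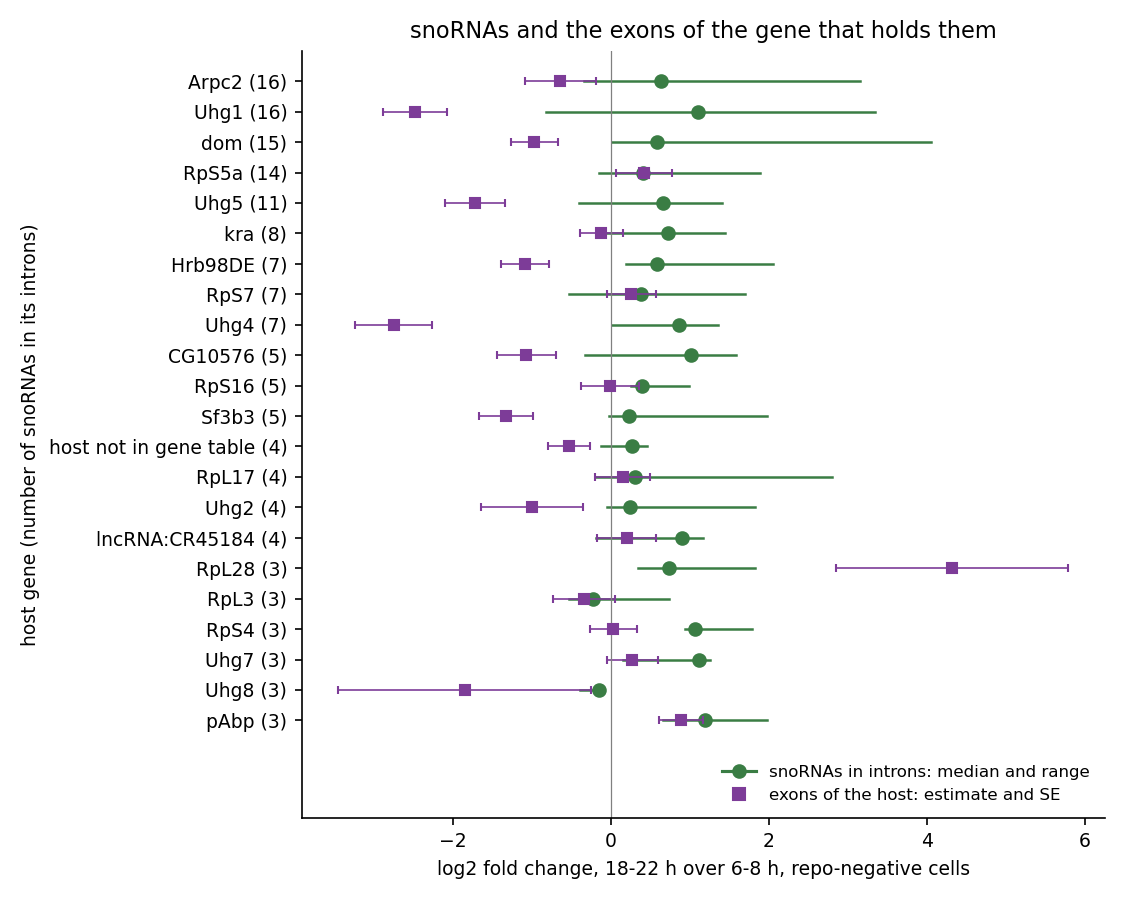
log2 fold change at 18-22 h over 6-8 h in repo-negative cells for 22 host genes, one per row; green circles and lines are the median and range of the snoRNAs in introns, purple squares with bars the exon estimate and its SE. Under the TMM scaling plotted, the snoRNA medians lie above 0 in 20 hosts (16 under total non-miRNA counts), and exons of Uhg1, Uhg4 and Uhg5 lie at -2.48, -2.75 and -1.72.

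In the pros sort both members called higher rest on few libraries. The orphan snoRNA:CD-24, in an intron of RpS3A (chromosome 4, 65577 to 65645, minus strand), had 3107 and 232 CPM in pros-positive cells, against 145 and 133 CPM in pros-negative cells (3.59 ± 0.93, edgeR adjusted p = 0.0457). Without pros-positive replicate 1 the difference was 0.74 and the call was lost. snoRNA:Psi18S-640d, an H/ACA guide in an intron of Arpc2, had 99 and 31.3 counts in pros-positive cells, against 0 counts in both pros-negative libraries. With a floor of 3 counts over the group it was at least 26.2-fold higher; this call was lost without either pros-negative library.

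snoRNA:CD-24 was 1 of 4 members whose highest library exceeded 10 times their median over libraries, a limit set after the values were seen. snoRNA:Or-CD11a, an orphan of 67 nt, reached 24444 CPM in pros-positive replicate 1, against a median of 306 CPM, and had 734 CPM in replicate 2 of the same group. snoRNA:U31:54Ed (67 nt, Uhg1) reached 3027 CPM in the same library. snoRNA:Me18S-G1620 (68 nt, Uhg2) had 12747 CPM there and 18060 CPM in elav-negative 18-22 h replicate 2. The 4 together took 23.7% of snoRNA counts in pros-positive replicate 1, 9.97% in elav-negative 18-22 h replicate 2 and 5.05 and 4.72% in replicate 2 of repo-negative and elav-positive cells of that stage. In pros-positive replicate 2 they took 3.20%, and in the other 15 libraries 0.639 to 1.89%. Left out, they lowered the snoRNA share in pros-positive cells to 9.36 and 5.22%, against 10.5 and 6.97% in pros-negative cells, and the groups still overlapped.

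All 4 are 67 to 69 nt long, as were 13 members in all, a band set around these 4 after their values were seen. Between the replicates of pros-positive cells, the median log2 ratio of replicate 1 over replicate 2 was 1.97 for these 13, 1.12 for 41 members of 70 to 79 nt, 0.97 for 40 of 80 to 99 nt, 0.80 for 103 of 100 nt to under 150 nt, 1.05 for 37 of 150 to 400 nt and 0.26 for 2 under 67 nt. In elav-negative cells at 18-22 h the ratio of replicate 2 over replicate 1 was 1.15 for the 13, 0.72, 0.50, 0.37 and 0.56 for the longer bands in the same order, and 0.16 for the 2 shortest. The ratios did not follow length throughout; the part of length in the comparisons above was not tested.

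**Figure D5:**
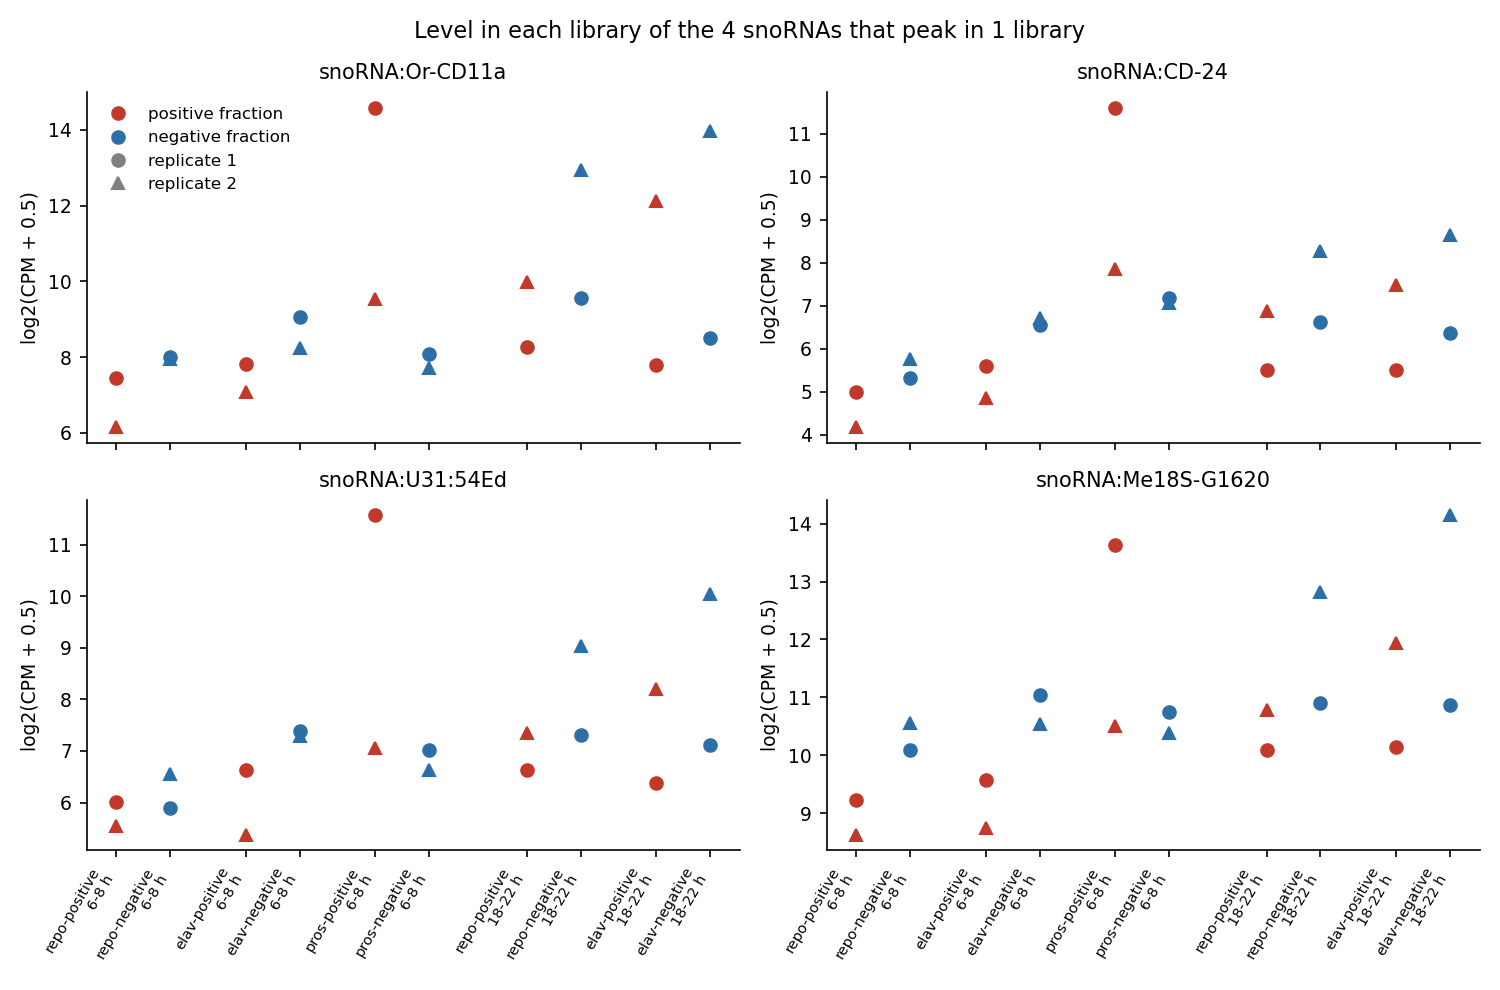
log2(CPM + 0.5) of the 4 snoRNAs whose highest library exceeded 10 times their median, in each library by group; circles are replicate 1 and triangles replicate 2, red positive and blue negative fractions. snoRNA:Or-CD11a stands at 24444 CPM in pros-positive replicate 1 and at 734 CPM in replicate 2.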

How the data were processed

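Small RNA libraries of 20 sorted samples, 2 per group in 10 groups, were read as deposited. Per the file headers, the authors counted reads with featureCounts 1.5.1 on Ensembl 85 BDGP6 exons, by strand, dividing multi-mapped reads between their sites, so the deposited values are estimated counts; Bowtie 1.1.2 and SAMtools 1.8 are named in the submitters' processing notes. Per the labels the replicates are biological duplicates, and p-values measure the spread between them.

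Estimated counts were rounded to whole numbers. Rows of miRNAs (237) were left out of the fit. edgeR 4.0.16 (R 4.3.3) fitted 10 groups with TMM factors, filterByExpr and the quasi-likelihood test, with a biological coefficient of variation of 0.514 and 10 residual degrees of freedom, adjusted over 11928 rows. Shares were tested by exact permutation of libraries within sorts or fractions. The fit was also run on simulated whole counts drawn with its own dispersions and scaling factors, with randomly picked rows changed. These held no shift of the snoRNA class and no divided reads, so that run cannot judge the fit on either. Depth was 6863042 to 24501421 counts per library; a share's 95% interval was 12.06 to 12.10% for repo-positive 6-8 h replicate 1, for counting error only. Reads of PCR products without molecular identifiers are not independent molecules.

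Named members were the 6 largest changes per direction and comparison among members past the threshold whose groups did not overlap and whose higher group averaged 10 CPM or more, plus the 10 most abundant, U-numbered members and the 3 profiles most and least like the sum. In comparisons with few calls every called member was named without that CPM limit. This added snoRNA:Psi18S-640d, with a mean of 4.08 CPM in pros-positive cells. Members and lists were chosen with earlier results of these data known. Alternatives were other scalings, no filter, DESeq2 1.42.0, a replicate block, summed families and libraries left out. Correlations between the deviations of same-numbered libraries were 0.014 to 0.184, highest in the elav sort at 6-8 h. The labels do not say whether same-numbered libraries share a sort, so the main fit had no replicate block. Gene coordinates are BDGP6 as deposited. Rows without a gene name (306) were kept in the fit. No snoRNA sequences are printed.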

Additional observations from a re-analysis of the deposited data

Results flagged for a closer look

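In 12 of the 52 named members (23.1%) the libraries of a sort moved one way without overlap and those of another sort the opposite way. The same was true of 36 of 236 members (15.3%) and of 38.6% of all 11928 rows tested, a higher share than among the members. The differences between sorts were not tested, and all values are log2 changes of positive over negative cells. snoRNA:CD-24 differed by 3.59 in the pros sort at 6-8 h, and by -0.92 in the repo sort at 6-8 h and -1.38 in the elav sort at 6-8 h. snoRNA:Me28S-C3420b differed by 0.93 in the pros sort at 6-8 h, and by -1.43 in the repo sort at 6-8 h, -1.32 in the elav sort at 6-8 h and -1.11 in the repo sort at 18-22 h. snoRNA:Me28S-G3255a differed by 0.79 in the pros sort at 6-8 h, and by -1.24 in the repo sort at 6-8 h, -1.94 in the elav sort at 6-8 h and -1.09 in the elav sort at 18-22 h. snoRNA:Psi18S-1295 differed by 0.27 in the pros sort at 6-8 h, and by -1.40 in the elav sort at 6-8 h, -1.24 in the repo sort at 18-22 h and -1.78 in the elav sort at 18-22 h. snoRNA:Psi18S-1389a differed by 0.77 in the pros sort at 6-8 h, and by -1.07 in the elav sort at 6-8 h. snoRNA:Psi18S-640d differed by 1.71 in the repo sort at 6-8 h and 8.39 in the pros sort at 6-8 h, and by -1.86 in the elav sort at 6-8 h and -2.18 in the elav sort at 18-22 h. snoRNA:Psi28S-1060 differed by 0.88 in the pros sort at 6-8 h, and by -0.77 in the repo sort at 6-8 h and -2.19 in the elav sort at 6-8 h. snoRNA:Psi28S-2648 differed by 1.00 in the pros sort at 6-8 h, and by -1.99 in the elav sort at 6-8 h. snoRNA:Psi28S-3327c differed by 0.37 in the pros sort at 6-8 h, and by -0.66 in the repo sort at 6-8 h, -1.51 in the elav sort at 6-8 h, -1.03 in the repo sort at 18-22 h and -1.98 in the elav sort at 18-22 h. snoRNA:U29:54Ed differed by 0.79 in the pros sort at 6-8 h, and by -1.46 in the elav sort at 6-8 h, -1.18 in the repo sort at 18-22 h and -0.90 in the elav sort at 18-22 h. snoRNA:U31:54Ec differed by 0.63 in the pros sort at 6-8 h, and by -1.03 in the repo sort at 6-8 h, -1.37 in the elav sort at 6-8 h, -0.76 in the repo sort at 18-22 h and -1.16 in the elav sort at 18-22 h. snoRNA:U31:54Ed differed by 3.80 in the pros sort at 6-8 h, and by -1.21 in the elav sort at 6-8 h. The 8.39 of snoRNA:Psi18S-640d is a fitted value against 0 counts in both pros-negative libraries and is no bound; with a floor of 3 counts over the group the member was at least 26.2-fold higher there. In 11 of the 12 the pros sort alone was the higher one, and snoRNA:Psi18S-640d was also higher in the repo sort. The values of snoRNA:CD-24 and snoRNA:U31:54Ed in the pros sort rest on pros-positive replicate 1.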

How the results depend on the processing

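The lower snoRNA share in positive cells kept its direction and its side of the threshold under other denominators, all snoRNA rows, a minimum of 100 counts and without any 1 library (-0.70 to -0.47, exact permutation p = 0.000772 to 0.0368). The late over early share ranged from -0.04 to 0.17 without 1 library. It changed sign, to -0.04, -0.02 and -0.03, when replicate 2 of repo-positive, replicate 1 of elav-positive or replicate 1 of elav-negative cells of 6-8 h was left out. The H/ACA to C/D ratio of positive over negative cells ranged from -0.04 to 0.18. It changed sign to -0.04 without elav-positive 6-8 h replicate 2, to -0.03 without pros-positive replicate 2 and to -0.03 without both elav 6-8 h replicate 2 libraries. The late over early ratio ranged from -0.38 to -0.10 (exact permutation p = 0.0355 to 0.33), and passed 0.05 unadjusted in 3 of those 16 cases.

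Counts of members called are given in the order repo, elav and pros sorts at 6-8 h, repo and elav sorts at 18-22 h, then late over early in repo-positive, repo-negative, elav-positive and elav-negative cells. They were 9, 55, 3, 0, 24, 25, 28, 8 and 14. Scaling to total non-miRNA counts gave 0, 6, 4, 0, 5, 5, 11, 3 and 4, and to total snoRNA counts 1, 1, 4, 0, 0, 4, 7, 2 and 4. Without a low-count filter they were 12, 75, 9, 0, 32, 45, 48, 19 and 24. DESeq2 gave 42, 115, 11, 0, 58, 57, 47, 19 and 29. A replicate block gave 39, 127, 6, 1, 63, 70, 51, 22 and 29. Whether same-numbered libraries share a sort is not stated by the labels. With copies of a family summed there were 4, 35, 1, 0, 15, 13, 18, 5 and 9. Without both elav 6-8 h replicate 2 libraries 0 were left in that elav sort, and late over early 40, 1 and 1 in repo-positive, elav-positive and elav-negative cells. Without 1 library the ranges were 0 to 32, 9 to 51, 0 to 14, 0 to 0, 1 to 19, 1 to 18, 3 to 16, 2 to 11 and 1 to 13.

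Repo-positive over elav-positive cells at 6-8 h, 1 call in the fit reported, gave 6 and 2 under the total non-miRNA and total snoRNA scalings, 3 without a filter, 6 with DESeq2, 4 with the replicate block, 3 without both elav replicate 2 libraries and 0 to 3 without 1 library. At 18-22 h it gave 0 under both scalings and 0 to 0 without 1 library. Repo-negative over elav-negative cells at 6-8 h gave 1 under total snoRNA scaling, 3 without a filter, 4 with DESeq2, 2 with the replicate block and 0 to 0 without 1 library. The elav stage difference gave 1 without a filter and 1 with DESeq2. Both stage differences gave 0 to 1 without 1 library. The cause of these shifts was not tested. Members named for a call were chosen with groups that do not overlap, so leaving out 1 library could hardly change their direction. For named members, 425 alternative values kept their call, 165 did not pass the threshold and 0 changed direction.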
